A study of Mus musculus with 12 samples.

Results

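The 45 genes described here encode the receptors by which macrophages take up material and sense microbes: Fc receptors, C-type lectins, scavenger receptors, receptors for dying cells and Toll-like receptors, with some of their adaptors, partners and neighbouring myeloid receptors. They were chosen as a list of names and found by gene symbol among the 53819 entries of a table of read counts, where all 45 had a row. RNA had been sequenced from 12 libraries of wild-type mouse cells prepared as mesenchymal stromal cells, 3 in each of 4 groups. The BM sorted group was marrow from both hind limbs and the pelvis that had grown on collagen I and, after its first passage, been sorted by flow cytometry for CD51+ and Sca-1+ cells without CD31, CD45, Ly6C or F4/80. The BM nonsorted group was the same kind of culture taken without that sort. The BAC depleted group (BAC, bone-associated cells) came from hind-limb bone pieces digested with collagenase I, with cells bearing CD45, Ly6C or F4/80 then withdrawn on magnetic beads, and the BAC nondepleted group skipped the beads. Per the labels' protocols, the cells shared a hypoxic alpha MEM culture with fetal bovine serum and no ascorbic acid. The age and sex of the mice and the culture time of the bone-associated cells are details for which no label gives a value. In the BAC depleted group the counts of Xist and Ddx3y, given below, show both a female and a male pattern. The libraries of that group therefore did not all come from the same mouse. For the other groups nothing says that the libraries came from separate mice, so the spread between them may be technical. None of the 45 genes encodes an antigen of the sort or of the beads.

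As background, Fc receptors bind the tails of antibodies. The activating ones, like TREM2 and some lectins, signal through adaptor proteins that carry an activation motif and recruit the kinase SYK. Scavenger receptors and the mannose receptor bind modified lipoproteins, glycoproteins and debris, and the receptors AXL, MERTK and TYRO3 bind dying cells through bridging proteins. Toll-like receptors sense microbial lipids, proteins and nucleic acids and mostly signal through MYD88. Resident macrophages of marrow and bone are known for mannose receptor, CD163 and sialoadhesin, while several Toll-like receptors and AXL are also known in fibroblasts and other stromal cells.

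The libraries held 27937709 to 32164725 counts. As a check of the labels, 12 of 12 genes of a macrophage and monocyte list reached a mean of 1 CPM (each count as a rate of its library, on TMM-scaled sizes) in both unpurified groups, although those groups are labelled as stromal preparations. That list summed to 5.30 to 7.90 CPM in BM sorted and 4605 to 5486 CPM in BM nonsorted libraries, and to 12.1 to 64.5 CPM in BAC depleted and 11805 to 13288 CPM in BAC nondepleted libraries. Of these sums, Lyz2 alone gave 15.8, 60.6 and 7.12 CPM in BAC depleted and 3.96, 3.41 and 4.23 CPM in BM sorted libraries. In BAC depleted libraries 5 of the list's 12 genes, C1qa, C1qb, Aif1, Cx3cr1 and Ccr2, were at 0 counts, and in BM sorted libraries Aif1 and Ccr2 were. A leukocyte core list of 8 genes summed to 3.66 to 8.57 CPM in BM sorted and 726 to 900.4 CPM in BM nonsorted libraries, and to 1.49 to 2.0 CPM in BAC depleted and 1455 to 1785 CPM in BAC nondepleted libraries. A stromal list of 10 genes summed to at least 29594 CPM in every library. B cell genes stayed at or under 0.691 CPM in sum. The library BAC depleted 1 stood apart with 43406 counts of Xist and 0 of Ddx3y, a female pattern. The others had at most 16 of Xist and at least 2484 of Ddx3y, a male pattern. Called member values and shares that BAC depleted 1 moves by over 1.5 times are given without it as well.

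Purification removed nearly all transcripts of most of these receptor genes and left those of a smaller set in part or in full. After the sort 35 of the 45 genes fell and 1, Lbp, rose, where 6.23% of the 15698 genes tested were called, 6.06% lower and 0.166% higher (edgeR's quasi-likelihood test, Benjamini-Hochberg adjusted p under 0.05, as everywhere below). After the depletion 35 fell and 0 rose, where 37.3% of tested genes were called, 19.9% lower and 17.4% higher. At an unadjusted p under 0.05 the number that rose was also 0, as it was in DESeq2's Wald test. The median log2 fold change over the 44 tested members was -7.18 for the sort and -8.68 for the depletion, against 6e-04 (sort) and 0.0478 (depletion) over all tested genes. With members at 0 counts set to their bound it was -6.86 for the sort and -8.37 for the depletion. Timd4, a phosphatidylserine receptor of resident macrophages, was the 1 member not tested, with 2 counts in 1 BM nonsorted library, 2 in 1 BAC depleted library and 0 elsewhere. Most of the members that fell entered the test only through the unpurified libraries, so these counts describe the groups and are not read as a test of the list. In bulk RNA, fewer macrophages and less receptor RNA per macrophage cannot be told apart.

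**Figure D1:**
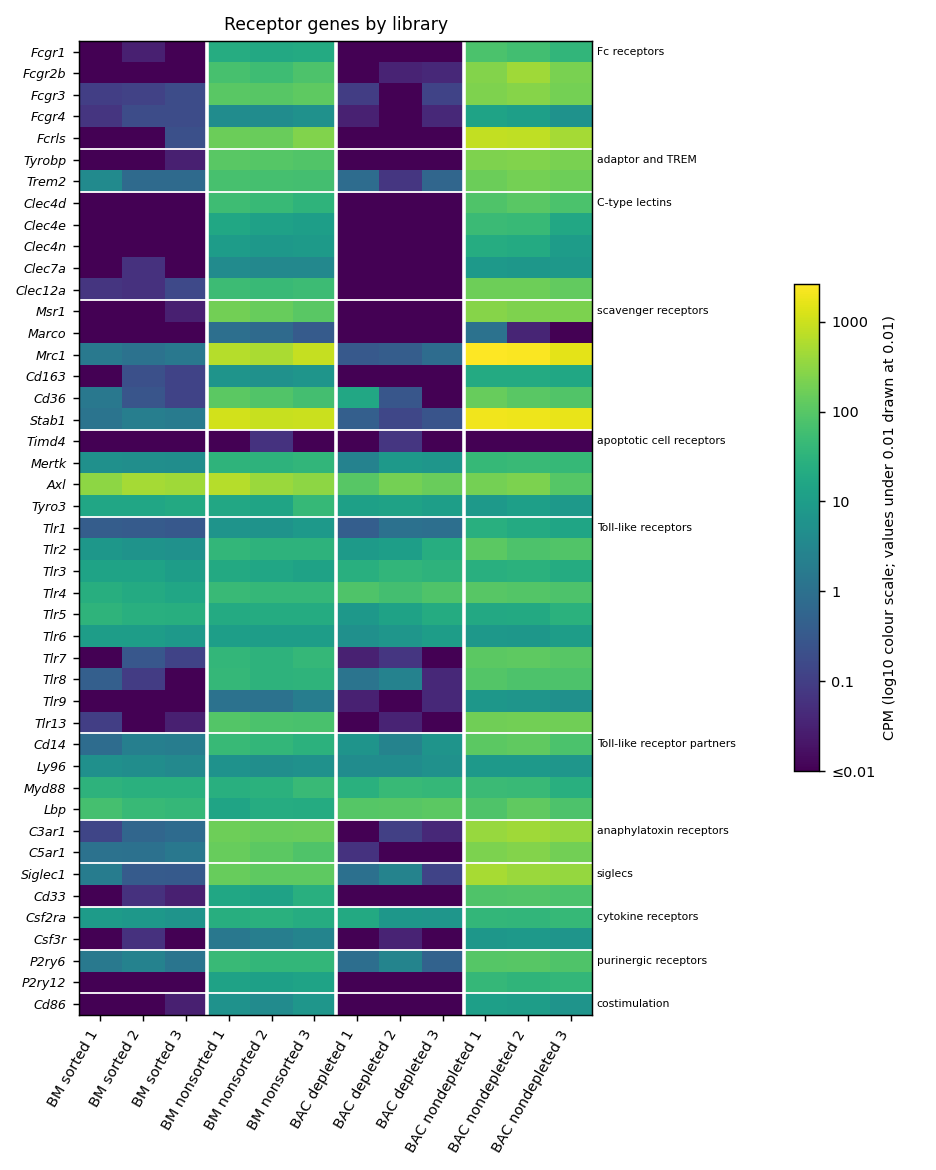
Level of each of the 45 receptor genes (rows, ordered by role) in each of the 12 libraries (columns), in CPM on a log10 colour scale with values under 0.01 drawn at 0.01. The 12 members that stayed above 10% have counts in every column, with Axl and Myd88 changing little in colour and Mertk, Tlr2 and Csf2ra darker after purification, while 5 members have 0 counts in all 6 purified libraries.

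The share that remained was taken as the mean CPM of the purified group in percent of its unpurified counterpart, with a member at 0 counts placed at the share that 3 counts over the whole group would give (floors and intervals here cover counting error only). After the sort 7 of 44 members remained at under 0.1%, 16 at 0.1 to 1%, 9 at 1 to 10%, 4 at 10 to 50% and 8 at over 50%. After the depletion the numbers in the same classes were 17, 9, 6, 3 and 9. The median share was 0.816% after the sort and 0.298% after the depletion, against 0.336% (sort) and 0.0795% (depletion) for the leukocyte core genes and 0.112% (sort) and 0.0334% (depletion) for the macrophage and monocyte list. The same 12 members stood above 10% after both purifications: Mertk, Axl, Tyro3, Tlr2, Tlr3, Tlr4, Tlr5, Tlr6, Ly96, Myd88, Lbp and Csf2ra. The same 32 stood at or under 10% after both.

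Some members lay near the 10% limit. Just above it were Mertk, with 14.4% after the sort and 13.7% after the depletion, and Tlr2, with 18.7% after the sort and 15.7% after the depletion. Just below were Tlr1, with 5.12% after the sort and 3.90% after the depletion, and Cd14, with 4.33% and 4.84% in that order. Marco, at 0 counts in the purified libraries, allows up to 4.66% after the sort and 9.07% after the depletion, since it was low before purification as well. The 12 kept members averaged 4.50 to 414.5 CPM in BM sorted and 4.73 to 148 CPM in BAC depleted libraries. Of the 32 others, 6 had a mean over 1 CPM after the sort and 5 after the depletion, and the highest of them averaged 1.82 CPM (Trem2) in BM sorted and 6.01 CPM (Cd36) in BAC depleted libraries.

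**Figure D2:**
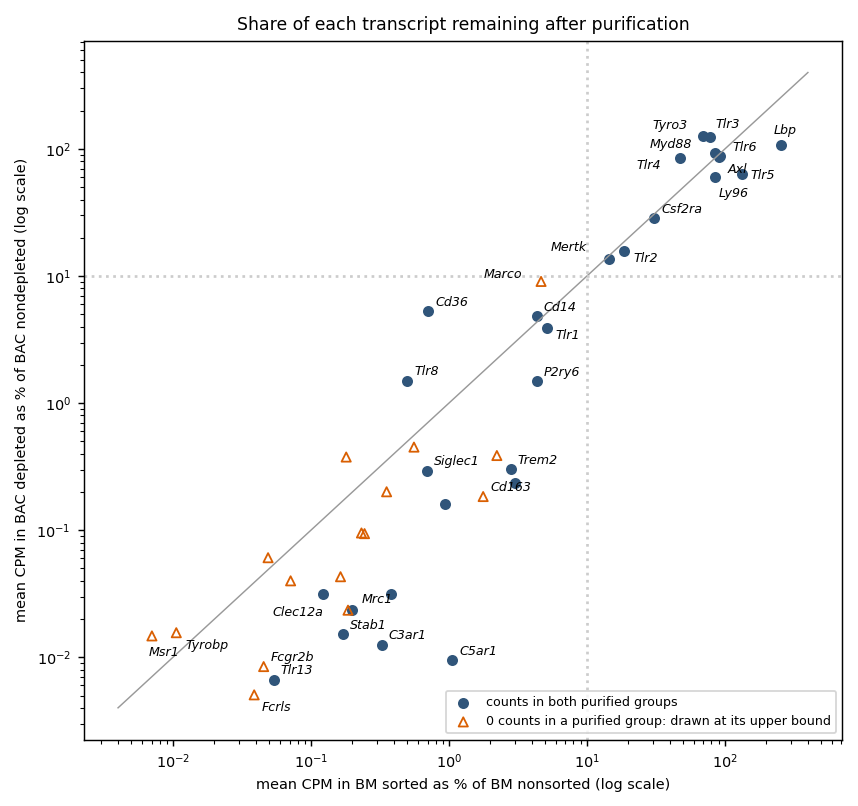
Share of each transcript remaining after the sort (x axis, mean CPM in BM sorted as percent of BM nonsorted) and after the depletion (y axis, BAC depleted as percent of BAC nondepleted), both on log scales, 1 point per member (open triangles: 0 counts in a purified group, drawn at the upper limit), with dotted lines at 10% and a line of equal shares. 12 members lie above both dotted lines, and Stab1, C3ar1 and C5ar1 lie far below the line of equal shares.

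Promoter sequences are a feature that the choice of genes did not use. RefSeq promoters of build GRCm38.p6, 250 bases before to 50 after the gene start, matched 34 of the 45 members. Only the first listed promoter of each gene was used, for the members and for all promoters, and other starts were not searched. The 11 members without an entry were Tyrobp, Clec4n, Msr1, Tlr4, Tlr7, Cd14, Ly96, Lbp, Siglec1, P2ry6 and Cd86. The purine-rich motif GAGGAA, a core of the sites bound by the macrophage factor PU.1, was searched on both strands (TTCCTC on the other) and stood in 18 of 24 promoters (75.0%) of members at or under 10% and in 2 of 9 (22.2%) of kept members, against 28.3% of all 27025 promoters. The kept members with it were Axl and Csf2ra. The RUNX-type motif TGTGGT, also searched on both strands, can share at most 1 end letter with the purine-rich motif. It stood in 6 of 24 (25.0%) and 1 of 9 (11.1%), against 16.9% of all. Base composition differed too, with a median GC of 46.0% in the 24 and 60.3% in the 9, against 52.7% over all promoters. A match is a description of the letters and not a binding site. The promoters below are shown because Tlr1 and its neighbour Tlr6 lie on either side of the 10% limit, Clec12a and Mrc1 were nearly removed and Axl had the highest level per kilobase after purification; capitals mark GAGGAA or TTCCTC, and all are written 5′ to 3′ along the gene's strand.
Tlr1 (chr5:64933509-64933808, minus strand): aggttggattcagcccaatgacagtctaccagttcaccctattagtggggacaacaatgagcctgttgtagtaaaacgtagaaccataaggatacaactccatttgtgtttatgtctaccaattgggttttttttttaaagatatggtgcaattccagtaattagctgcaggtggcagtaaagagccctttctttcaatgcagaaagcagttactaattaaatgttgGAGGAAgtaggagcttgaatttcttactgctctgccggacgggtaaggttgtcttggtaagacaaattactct
Tlr6 (chr5:64959117-64959416, minus strand): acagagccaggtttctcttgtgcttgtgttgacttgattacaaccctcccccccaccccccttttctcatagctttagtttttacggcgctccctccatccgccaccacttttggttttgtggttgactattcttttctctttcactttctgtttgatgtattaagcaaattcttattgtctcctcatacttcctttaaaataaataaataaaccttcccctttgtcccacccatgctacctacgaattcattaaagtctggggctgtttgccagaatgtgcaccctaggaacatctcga
Clec12a (chr6:129349994-129350293, plus strand): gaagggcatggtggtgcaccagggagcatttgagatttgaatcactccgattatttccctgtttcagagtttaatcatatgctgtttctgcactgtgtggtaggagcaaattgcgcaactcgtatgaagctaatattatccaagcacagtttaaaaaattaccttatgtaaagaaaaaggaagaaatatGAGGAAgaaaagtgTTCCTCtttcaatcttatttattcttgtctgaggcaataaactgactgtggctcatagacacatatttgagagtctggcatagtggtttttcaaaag
Mrc1 (chr2:14229164-14229463, plus strand): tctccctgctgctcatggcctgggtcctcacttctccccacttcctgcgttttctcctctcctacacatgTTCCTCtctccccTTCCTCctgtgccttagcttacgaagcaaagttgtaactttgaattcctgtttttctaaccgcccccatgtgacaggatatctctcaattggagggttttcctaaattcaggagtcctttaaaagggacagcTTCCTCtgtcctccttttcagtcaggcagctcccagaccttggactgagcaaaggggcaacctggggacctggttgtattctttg
Axl (chr7:25788684-25788983, minus strand): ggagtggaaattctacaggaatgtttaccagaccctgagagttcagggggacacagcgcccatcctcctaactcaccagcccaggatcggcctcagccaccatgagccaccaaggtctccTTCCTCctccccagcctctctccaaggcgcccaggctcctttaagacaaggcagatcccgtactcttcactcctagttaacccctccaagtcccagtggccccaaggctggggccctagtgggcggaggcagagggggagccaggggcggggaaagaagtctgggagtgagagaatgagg

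Tlr1 held 1 match, 23 bases before its start, and Tlr6 none. Clec12a held 2, Mrc1 3 and Axl 1.

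Fc receptors were removed throughout, with 5 of 5 lower after the sort and 5 of 5 lower after the depletion. Fcgr1, the high-affinity receptor for IgG, had 0, 1 and 0 counts in BM sorted libraries against 726, 590 and 689 in BM nonsorted libraries. In bone it had 0 counts in BAC depleted libraries against 2321, 1641 and 966 in BAC nondepleted libraries. The groups did not overlap on either side: it was 1958-fold lower with a 95% counting interval of 351 to 77356 after the sort (adjusted p = 4.95e-06, edgeR) and at least 1646-fold lower after the depletion (1.41e-06). Fcgr2b, the inhibitory IgG receptor, had 0 counts in BM sorted libraries against 2293, 1715 and 2756 in BM nonsorted libraries. It had 0, 1 and 1 counts in BAC depleted libraries against 7536, 12320 and 5541 in BAC nondepleted libraries, so 2 counts in all outlasted the beads. Fcgr3, the low-affinity activating receptor, had 3, 4 and 6 counts in BM sorted libraries against 3565, 3160 and 4025 in BM nonsorted libraries. It had 3, 0 and 3 counts in BAC depleted libraries against 6976, 7612 and 5106 in BAC nondepleted libraries, which left 0.123% after the sort and 0.0312% after the depletion. The 2 genes are close in sequence over their extracellular exons, and reads shared between them could be counted for either.

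Fcgr4, an activating receptor for some IgG subclasses, had the lowest level per kilobase of the family before purification, at 3.79 CPM per kb in BM nonsorted and 8.24 in BAC nondepleted libraries. It had 2, 6 and 6 counts in BM sorted libraries against 142, 135 and 192 in BM nonsorted libraries, and 1, 0 and 1 counts in BAC depleted libraries against 411, 317 and 150 in BAC nondepleted libraries. 3.02% remained after the sort and 0.237% after the depletion, with a log2 fold change of -5.00 ± 0.50 (SE) for the sort. Fcrls, an Fc receptor-like scavenger protein of mouse macrophages, had 0, 0 and 7 counts in BM sorted libraries against 5251, 4623 and 8351 in BM nonsorted libraries. In bone it had 0 counts in BAC depleted libraries against 24819, 21835 and 12513 in BAC nondepleted libraries, and was at least 19766-fold lower. All 7 counts in BM sorted libraries came from BM sorted 3.

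Tyrobp, the activation-motif adaptor (DAP12) that serves TREM2 and other myeloid receptors, was also lost. It had 0, 0 and 1 counts in BM sorted libraries against 3477, 2992 and 2995 in BM nonsorted libraries, and 0 counts in BAC depleted libraries against 6995, 6742 and 5445 in BAC nondepleted libraries. It was 9239.9-fold lower with a 95% counting interval of 1658 to 364994 after the sort and at least 6408-fold lower after the depletion (adjusted p = 1.04e-07 and 4.02e-08, edgeR). Trem2, its lipid-binding partner receptor, left more behind: it had 118, 25 and 24 counts in BM sorted libraries against 2218, 2050 and 2089 in BM nonsorted libraries, which is 2.80%. In bone it had 26, 2 and 15 counts in BAC depleted libraries against 4596, 5201 and 4282 in BAC nondepleted libraries, which is 0.301%. The library BM sorted 1 carried most of what was left in marrow. The log2 fold change of Trem2 was -5.17 ± 0.69 for the sort (adjusted p = 0.000732) and -8.36 ± 0.82 for the depletion (3.96e-05). Trem2 transcripts stood at 1.82 ± 1.86 CPM in BM sorted libraries, where its adaptor had 1 count in all.

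C-type lectins, which bind fungal and bacterial sugars and debris from dead cells, fell in 5 of 5 cases on both sides. Clec4d (MCL), a partner of Mincle, had 0 counts in BM sorted libraries against 1800, 1368 and 1145 in BM nonsorted libraries, and 0 counts in BAC depleted libraries against 2537, 2976 and 1980 in BAC nondepleted libraries. Clec4e (Mincle), a receptor for mycobacterial glycolipid, had 0 counts in BM sorted libraries against 551, 402 and 369 in BM nonsorted libraries, and 0 counts in BAC depleted libraries against 1460, 1215 and 473 in BAC nondepleted libraries. Clec4n (Dectin-2), which binds fungal mannan, had 0 counts in BM sorted libraries against 319, 240 and 310 in BM nonsorted libraries, and 0 counts in BAC depleted libraries against 660, 571 and 261 in BAC nondepleted libraries. All 3 were at 0 in the 6 purified libraries, which puts them at least 283-fold lower (Clec4n, sort) to at least 2503-fold lower (Clec4d, depletion). Clec7a (Dectin-1), the beta-glucan receptor, averaged 0.0200 ± 0.0346 CPM in BM sorted and 3.58 ± 0.445 CPM in BM nonsorted libraries, and 0 in BAC depleted and 7.93 ± 0.629 CPM in BAC nondepleted libraries (SD, n = 3 each). Clec12a, an inhibitory lectin that recognises uric acid crystals, had 2, 2 and 5 counts in BM sorted libraries against 1682, 1486 and 1775 in BM nonsorted libraries, and 0 counts in BAC depleted libraries against 4858, 4471 and 3425 in BAC nondepleted libraries. Every sorted library kept a few counts and no depleted library kept any. Its log2 fold change after the sort was -9.0 ± 0.25 (adjusted p = 1.18e-07, edgeR), and it was at least 4261-fold lower after the depletion.

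Of the scavenger receptors, which include Mrc1 and Stab1, 5 of 6 fell after each purification. Mrc1, the mannose receptor, had 47, 37 and 47 counts in BM sorted libraries against 21503, 17122 and 29565 in BM nonsorted libraries. In bone it had 10, 11 and 20 counts in BAC depleted libraries against 75796, 65954 and 41201 in BAC nondepleted libraries. The highest purified libraries had 47 counts and the lowest unpurified one 17122. The log2 fold change was -8.97 ± 0.42 for the sort (adjusted p = 2.43e-07, edgeR) and -12.07 ± 0.47 for the depletion (4.49e-08). Stab1 (stabilin-1), which takes up acetylated lipoprotein and matrix fragments, had 36, 70 and 58 counts in BM sorted libraries against 36211, 28974 and 32819 in BM nonsorted libraries. It had 14, 4 and 6 counts in BAC depleted libraries against 58562, 51384 and 44125 in BAC nondepleted libraries, so 0.170% remained after the sort and 0.0152% after the depletion. Msr1, the class A scavenger receptor, had 0, 0 and 1 counts in BM sorted libraries against 5971, 4533 and 3671 in BM nonsorted libraries, and 0 counts in BAC depleted libraries against 8050, 6523 and 5760 in BAC nondepleted libraries. Its 1 purified count left 0.00704% after the sort, the lowest share on that side among members with any counts left. Cd163, the haemoglobin-haptoglobin receptor, had 0, 7 and 4 counts in BM sorted libraries against 210, 176 and 229 in BM nonsorted libraries, and 0 counts in BAC depleted libraries against 609, 567 and 451 in BAC nondepleted libraries. It left 1.77% after the sort and was at least 544-fold lower after the depletion. Marco, a collagenous scavenger receptor of marginal zone and alveolar macrophages, did not pass the test on either side (adjusted p = 0.203 and 0.0989, edgeR). It averaged 0.679 ± 0.305 CPM in BM nonsorted and 0.370 ± 0.610 CPM in BAC nondepleted libraries, and 0 in both purified groups.

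Cd36, a receptor for oxidised lipids and fatty acids that adipocytes carry as well as macrophages, was unevenly left. It had 43, 9 and 4 counts in BM sorted libraries against 3595, 2735 and 2170 in BM nonsorted libraries. It had 558, 8 and 0 counts in BAC depleted libraries against 4296, 2946 and 2357 in BAC nondepleted libraries, so the library BAC depleted 1 held nearly all of what remained in bone. Genes of adipocytes varied over the same libraries. The 7 listed summed to 396, 841 and 42.5 CPM in BAC depleted against 234, 264 and 263 CPM in BAC nondepleted libraries, and to 1140.0, 361 and 496 CPM in BM sorted against 213, 394 and 420.2 CPM in BM nonsorted libraries. In bone the list was highest in BAC depleted 2, where Cd36 had 8 counts, and not in BAC depleted 1, where it had 558. Of the list, Adipoq, Plin1 and Cidec were highest in BAC depleted 1 and Lpl and Pparg in BAC depleted 2, and the part of these cells in the Cd36 result was not tested. The log2 fold change of Cd36 was -7.17 ± 1.67 for the sort (adjusted p = 0.0277, edgeR) and -4.22 ± 1.39 for the depletion (0.037). Without BAC depleted 1 the depletion value was -9.51 (adjusted p = 0.000208) and the remaining share 0.124% instead of 5.29%. The sort call was lost without any 1 of the 6 marrow libraries or without BAC nondepleted 2, at adjusted p of up to 0.138 (without BM sorted 2), and the depletion call was lost in 9 of 19 alternatives, among them without BM sorted 2, BM nonsorted 1, BM nonsorted 2, BAC depleted 2 or any 1 of the BAC nondepleted libraries.

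Both anaphylatoxin receptors, both siglecs, both purinergic receptors and Cd86 fell after the sort and after the depletion. C3ar1, the receptor for complement fragment C3a, had 4, 20 and 25 counts in BM sorted libraries against 5370, 4468 and 5258 in BM nonsorted libraries, and 0, 3 and 1 counts in BAC depleted libraries against 11377, 11875 and 9440 in BAC nondepleted libraries. C5ar1, the receptor for C5a, had 32, 35 and 48 counts in BM sorted libraries against 4652, 3603 and 2822 in BM nonsorted libraries, and 2, 0 and 0 counts in BAC depleted libraries against 6783, 7088 and 4868 in BAC nondepleted libraries. It left 1.06% after the sort and 0.00948% after the depletion. Each sorted library held at least 32 counts. Siglec1 (sialoadhesin), which binds sialylated particles, had 57, 12 and 11 counts in BM sorted libraries against 4623, 3739 and 3963 in BM nonsorted libraries, and 32, 73 and 3 counts in BAC depleted libraries against 14795, 10967 and 9696 in BAC nondepleted libraries. What remained was spread unevenly over the libraries of both purified groups. Cd33, an inhibitory siglec, had 0, 2 and 1 counts in BM sorted libraries against 537, 414 and 874 in BM nonsorted libraries, and 0 counts in BAC depleted libraries against 2520, 2422 and 2013 in BAC nondepleted libraries, and was at least 2323-fold lower after the depletion.

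P2ry6, a receptor for the nucleotide UDP that promotes phagocytosis, had 45, 85 and 42 counts in BM sorted libraries against 1543, 1205 and 1293 in BM nonsorted libraries, and 29, 77 and 12 counts in BAC depleted libraries against 2826, 2782 and 2154 in BAC nondepleted libraries. It left 4.32% after the sort and 1.49% after the depletion, and no library of a purified group came near those of its unpurified one. P2ry12, an ADP receptor known from microglia, had 0 counts in BM sorted libraries against 421, 372 and 463 in BM nonsorted libraries, and 0 counts in BAC depleted libraries against 1199, 984 and 1003 in BAC nondepleted libraries. It was at least 409-fold lower after the sort and at least 1064-fold lower after the depletion. Cd86, a costimulatory ligand for T cells, averaged 0.0102 ± 0.0177 CPM in BM sorted and 5.67 ± 1.42 CPM in BM nonsorted libraries, and 0 in BAC depleted and 9.41 ± 2.73 CPM in BAC nondepleted libraries (SD, n = 3 each), and fell on both sides (adjusted p = 4.4e-05 and 1.49e-05, edgeR). Csf3r, the receptor for granulocyte colony-stimulating factor, averaged 0.0200 ± 0.0346 CPM in BM sorted and 2.15 ± 0.667 CPM in BM nonsorted libraries, and 0.0118 ± 0.0204 CPM in BAC depleted and 7.30 ± 0.701 CPM in BAC nondepleted libraries, and fell on both sides (0.000203 and 1.97e-05). Neutrophil genes summed to at most 2.96 CPM in any library.

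The Toll-like receptors were of both kinds, with 7 of 10 lower after the sort and 6 of 10 lower after the depletion. Those for nucleic acids of endosomes that are typical of leukocytes, Tlr7, Tlr8, Tlr9 and Tlr13, were lost. Tlr7, which senses single-stranded RNA, had 0, 10 and 4 counts in BM sorted libraries against 1224, 1005 and 1391 in BM nonsorted libraries, and 1, 2 and 0 counts in BAC depleted libraries against 3333, 3173 and 2611 in BAC nondepleted libraries. Tlr8, its neighbour on the X chromosome, had 13, 3 and 0 counts in BM sorted libraries against 1311, 996 and 1132 in BM nonsorted libraries, and 39, 71 and 1 counts in BAC depleted libraries against 2702, 2243 and 2109 in BAC nondepleted libraries. For Tlr8, BAC depleted 1 and 2 held all but 1 of the counts left in bone. Tlr13, which senses bacterial ribosomal RNA in the mouse, had 3, 0 and 1 counts in BM sorted libraries against 3044, 2425 and 2517 in BM nonsorted libraries, and 0, 1 and 0 counts in BAC depleted libraries against 5135, 5121 and 4529 in BAC nondepleted libraries. Its log2 fold change was -10.79 ± 0.42 for the sort (adjusted p = 8.51e-08, edgeR), and it was 14818-fold lower with a 95% counting interval of 2659 to 585303 after the depletion. Tlr9, for unmethylated CpG DNA, was scarce: it averaged 0 in BM sorted and 1.39 ± 0.517 CPM in BM nonsorted libraries, and 0.0245 ± 0.0218 CPM in BAC depleted and 6.33 ± 0.954 CPM in BAC nondepleted libraries (SD, n = 3 each). Tlr1, which pairs with TLR2 to bind triacylated lipopeptides, had 12, 12 and 10 counts in BM sorted libraries against 205, 187 and 295 in BM nonsorted libraries, and 13, 29 and 23 counts in BAC depleted libraries against 774, 549 and 409 in BAC nondepleted libraries. A low even level was left in every purified library, and the log2 fold change was -4.28 ± 0.36 for the sort and -4.69 ± 0.35 for the depletion.

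Tlr2, Tlr3, Tlr4, Tlr5 and Tlr6 were kept above 10%. Tlr6, the other partner of TLR2 and a neighbour of Tlr1, had 314, 346 and 276 counts in BM sorted libraries against 349, 329 and 359 in BM nonsorted libraries, and 161, 195 and 246 counts in BAC depleted libraries against 231, 202 and 269 in BAC nondepleted libraries. The groups overlapped in marrow and in bone, and neither change passed the test (adjusted p = 0.912 and 0.549, edgeR). Tlr1 and Tlr6 are near copies over much of their coding sequence, so reads shared between them could be counted for either. Tlr2 itself, the lipoprotein receptor, had 224, 202 and 178 counts in BM sorted libraries against 1242, 1003 and 1085 in BM nonsorted libraries, and 277, 311 and 577 counts in BAC depleted libraries against 3343, 2228 and 2267 in BAC nondepleted libraries. It fell by 2.42 ± 0.34 on the log2 scale after the sort and by 2.68 ± 0.34 after the depletion, yet every purified library kept at least 178 counts. Tlr3, the receptor for double-stranded RNA, had 417, 471 and 330 counts in BM sorted libraries against 630, 513 and 451 in BM nonsorted libraries, and 811, 1021 and 772 counts in BAC depleted libraries against 768, 772 and 566 in BAC nondepleted libraries. It passed the test on neither side (adjusted p = 0.453 and 0.211). Tlr5, the flagellin receptor, had 1001, 875 and 817 counts in BM sorted libraries against 679, 684 and 726 in BM nonsorted libraries, and 247, 380 and 504 counts in BAC depleted libraries against 551, 534 and 745 in BAC nondepleted libraries. Its values were 0.41 ± 0.30 (0.631) for the sort and -0.65 ± 0.30 (0.116) for the depletion.

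The members of the lipopolysaccharide receptor complex differed in what remained. Tlr4, its signalling chain, had 741, 677 and 522 counts in BM sorted libraries against 1555, 1296 and 1402 in BM nonsorted libraries, and 2644, 1772 and 2031 counts in BAC depleted libraries against 3003, 2510 and 2071 in BAC nondepleted libraries. It fell after the sort, with a log2 fold change of -1.09 ± 0.18 (adjusted p = 0.00263, edgeR), and was at -0.23 ± 0.17 after the depletion (0.323). Ly96 (MD-2), the chain that holds the lipid, had 159, 152 and 118 counts in BM sorted libraries against 184, 151 and 187 in BM nonsorted libraries, and 135, 123 and 133 counts in BAC depleted libraries against 246, 227 and 182 in BAC nondepleted libraries. It was at -0.24 ± 0.19 after the sort (0.664) and fell after the depletion (-0.73 ± 0.19, 0.0126). Cd14, the coreceptor that passes lipopolysaccharide to them, had 25, 72 and 64 counts in BM sorted libraries against 1473, 1205 and 1054 in BM nonsorted libraries, and 196, 76 and 152 counts in BAC depleted libraries against 3413, 3462 and 1955 in BAC nondepleted libraries. It fell on both sides, at -4.52 ± 0.43 for the sort and -4.37 ± 0.42 for the depletion, though each purified library kept at least 25 counts. Lbp, the secreted protein that loads CD14, had 1935, 1458 and 1342 counts in BM sorted libraries against 484, 707 and 732 in BM nonsorted libraries, and 3007, 2947 and 2641 counts in BAC depleted libraries against 2445, 3416 and 2099 in BAC nondepleted libraries. It rose after the sort by 1.35 ± 0.23 (0.00427) with no overlap, and was at 0.11 ± 0.23 after the depletion (0.717). Myd88, the adaptor of most Toll-like receptors, had 928, 896 and 913 counts in BM sorted libraries against 865, 899 and 1603 in BM nonsorted libraries, and 841, 1285 and 984 counts in BAC depleted libraries against 1439, 1311 and 698 in BAC nondepleted libraries, and passed the test on neither side (0.806 and 0.774).

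Of the receptors for dying cells, Axl and Tyro3 passed the test on neither side and Mertk fell in part. Axl had 9400, 15984 and 14663 counts in BM sorted libraries against 21584, 12548 and 10776 in BM nonsorted libraries. In bone it had 3180, 5441 and 3626 counts in BAC depleted libraries against 5626, 6179 and 2546 in BAC nondepleted libraries. Those groups overlapped in both preparations, with 90.2% remaining after the sort (log2 fold change -0.15 ± 0.37, adjusted p = 0.928, edgeR) and 87.1% after the depletion (-0.20 ± 0.37, 0.696). Tyro3 had 472, 547 and 632 counts in BM sorted libraries against 579, 460 and 1424 in BM nonsorted libraries, where BM nonsorted 3 stood above all others, and 376, 374 and 263 counts in BAC depleted libraries against 252, 315 and 224 in BAC nondepleted libraries. Its values were -0.52 ± 0.33 (0.552) and 0.35 ± 0.33 (0.439). Mertk, known as the main receptor of this family for engulfment by tissue macrophages, had 155, 160 and 151 counts in BM sorted libraries against 1079, 988 and 1257 in BM nonsorted libraries, and 80, 233 and 172 counts in BAC depleted libraries against 1273, 1278 and 1095 in BAC nondepleted libraries. The log2 fold change was -2.79 ± 0.34 for the sort (0.000325) and -2.87 ± 0.34 for the depletion (0.000136), with no overlap. Csf2ra, a chain of the granulocyte-macrophage colony-stimulating factor receptor, had 273, 252 and 211 counts in BM sorted libraries against 827, 868 and 782 in BM nonsorted libraries, and 601, 208 and 166 counts in BAC depleted libraries against 1135, 996 and 1125 in BAC nondepleted libraries. It fell on both sides (-1.71 ± 0.34, 0.0112, and -1.81 ± 0.34, 0.00257), and the sort call was lost without BM sorted 2 (0.0584) or BM sorted 3 (0.064).

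**Figure D3:**
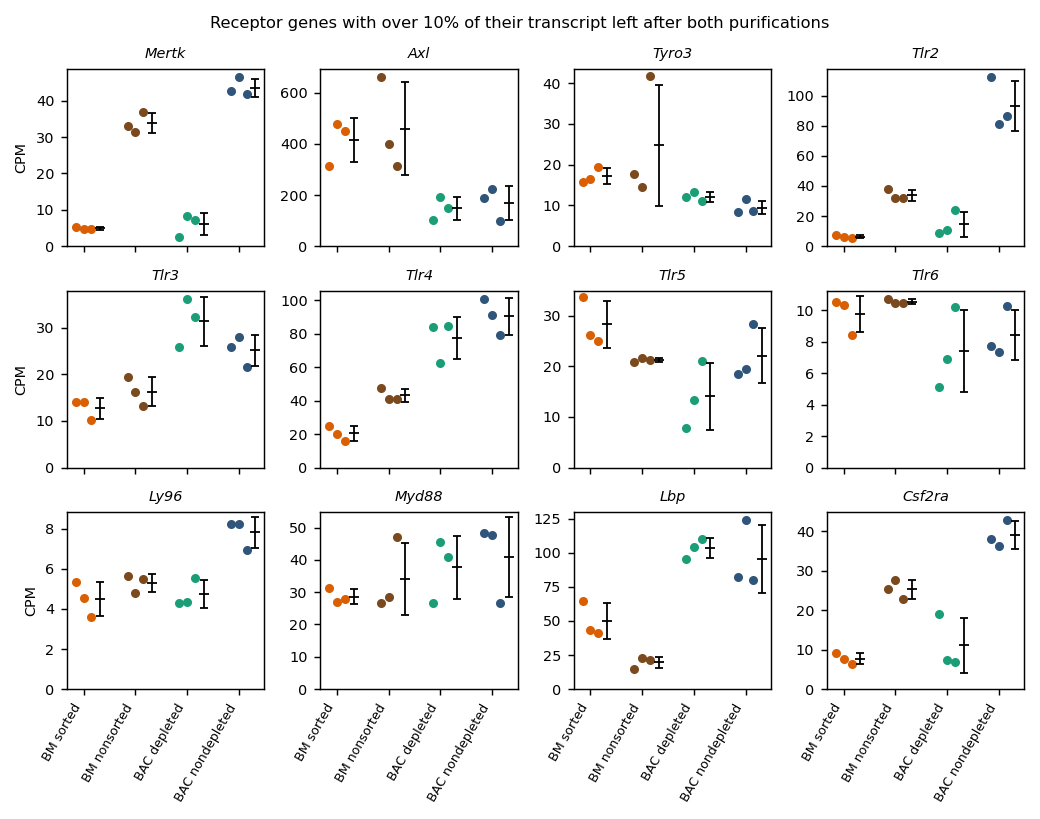
CPM of the 12 members that stayed above 10% after both purifications, 1 panel each, with 1 point per library and the mean ± SD of 3 libraries beside them, in BM sorted, BM nonsorted, BAC depleted and BAC nondepleted groups. Axl spans overlapping ranges before and after each purification, Lbp is higher in BM sorted than in BM nonsorted libraries, and Mertk and Tlr2 show partial falls.

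Per kilobase of merged exons (GENCODE M21), the level of Tyrobp was the highest of the list before purification, at 145 CPM per kb in BM nonsorted and 343 in BAC nondepleted libraries. Mrc1 came next, at 108 in BM nonsorted and 341 in BAC nondepleted libraries. Stab1 followed in BM nonsorted libraries at 97.0, then Axl at 91.3 and Fcrls at 79.0. In BAC nondepleted libraries Fcrls followed Tyrobp and Mrc1 at 300.4, and Axl stood 15th at 33.8. After purification the order was another one: Axl led at 82.4 CPM per kb in BM sorted and 29.4 in BAC depleted libraries. Myd88 was second in BM sorted at 11.1 and Lbp second in BAC depleted at 21.4. Neighbours in these orders, such as Tyrobp and Mrc1 in BAC nondepleted libraries, had no test between them.

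Between the unpurified groups, most macrophage receptors were lower in the marrow cultures than in the bone-associated cells. Of 44 tested members 27 were lower and 2, Axl and Tyro3, higher in BM nonsorted than in BAC nondepleted libraries, where 31.7% of all tested genes were called, 16.8% lower and 14.9% higher. The median was -1.16 on the log2 scale, against -0.0075 over all tested genes. The leukocyte core moved the same way, with 726 to 900.4 CPM in BM nonsorted and 1455 to 1785 CPM in BAC nondepleted libraries. The 2 groups differ in skeletal site, collection and passage, which cannot be told apart here. Without BM nonsorted 2 or without BAC nondepleted 2 the number lower was 15. Furthest below 0 was Lbp, at 19.6 ± 4.11 CPM in BM nonsorted and 95.4 ± 24.9 CPM in BAC nondepleted libraries (log2 fold change -2.28 ± 0.24, adjusted p = 0.000344, edgeR). Tlr9 (-2.18 ± 0.40), Cd33 (-2.17 ± 0.28), Fcgr2b (-2.15 ± 0.31) and Fcrls (-1.93 ± 0.47) followed. The call for Fcrls was lost without BM nonsorted 1 or 2 or BAC nondepleted 1 or 2. Mrc1 averaged 690.3 ± 162 CPM in BM nonsorted and 2170.4 ± 525 CPM in BAC nondepleted libraries (-1.65 ± 0.30, 0.00336). Axl averaged 459 ± 182 CPM in BM nonsorted and 170.1 ± 65.8 CPM in BAC nondepleted libraries (1.43 ± 0.38, 0.0174), a call lost without BM nonsorted 1. The call for Tyro3 (1.38 ± 0.34, 0.0129) was lost without BAC nondepleted 1.

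Expressed per leukocyte core transcript instead, a scale added after the data had been seen, 12 members were lower and 9 higher in BM nonsorted than in BAC nondepleted libraries. The share of all tested genes called on that scale was not taken, so these counts have no background beside them. Of the 9, Cd36, Mertk, Tlr3, Tlr5, Ly96 and Myd88 stood below the median of 1.04 over all genes. That scale raised the median of all genes by 1.05 on the log2 scale and the members by 1.02 to 1.10, so a member less than that shift below 0 on the CPM scale changes sign by the scaling alone. Called lower on both scales were Fcgr2b at -1.07 (adjusted p = 0.00617), Tlr9 at -1.10 (adjusted p = 0.0157), Cd33 at -1.10 (adjusted p = 0.00624), Fcrls at -0.84 (adjusted p = 0.0207) and the kept member Lbp at -1.20 (adjusted p = 0.00207), all by edgeR. Clec12a, Cd163, Tlr2, Tlr7, Cd14 and P2ry12 were also lower on both, and Siglec1 was called lower on the core scale only. On the CPM scale the calls for Fcrls, Cd163 and Cd14 were lost without any 1 of 4, 5 and 3 libraries, in that order. Mrc1 stood at -0.57 (adjusted p = 0.0584), Tyrobp at -0.20 (adjusted p = 0.186) and Fcgr3 at -0.04 (adjusted p = 0.829), and these 3 did not pass the test. Axl stood at 2.48 (adjusted p = 0.000165) and Tyro3 at 2.48 (adjusted p = 0.00444), against a median of 1.04 over all genes.

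**Figure D4:**
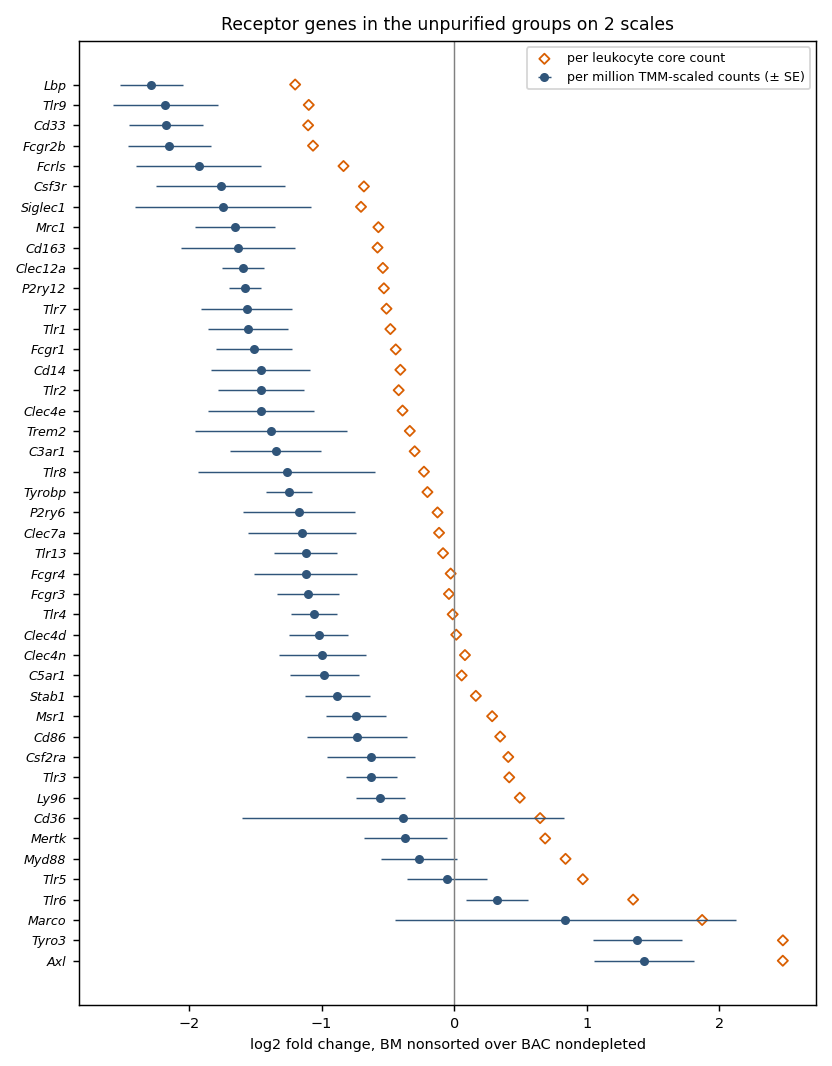
Log2 fold change of each tested member, BM nonsorted over BAC nondepleted, in CPM (filled circles, bars ± SE) and per leukocyte core count (open diamonds, no error drawn). Lbp, Tlr9, Cd33 and Fcgr2b are lowest on both scales, Axl and Tyro3 highest, and the diamonds lie to the right of the circles throughout.

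Between the purified groups the traces were unequal. Of 44 tested members 9 were higher and 7 lower in BM sorted than in BAC depleted libraries, where 47.4% of all tested genes were called, 22.9% higher and 24.6% lower. The members' shares lie near or below that background. Higher in BM sorted were members that both purifications had removed, Fcgr4, Clec12a, Mrc1, Cd163, Stab1, C3ar1 and C5ar1, with means under 2 CPM. Stab1 averaged 1.69 ± 0.450 CPM in BM sorted and 0.279 ± 0.154 CPM in BAC depleted libraries (log2 fold change 2.56 ± 0.33, adjusted p = 0.000237, edgeR). C5ar1 averaged 1.20 ± 0.236 CPM in BM sorted and 0.0212 ± 0.0367 CPM in BAC depleted libraries (5.43 ± 0.58, 9.56e-05), and Mrc1 1.38 ± 0.241 CPM in BM sorted and 0.513 ± 0.279 CPM in BAC depleted libraries (1.45 ± 0.37, 0.00905). Axl and Tlr5, both kept, were higher as well. Axl averaged 415 ± 87.0 CPM in BM sorted and 148 ± 45.7 CPM in BAC depleted libraries (1.48 ± 0.38, 0.00903), and Tlr5 28.3 ± 4.65 CPM in BM sorted and 14.1 ± 6.6 CPM in BAC depleted libraries (1.01 ± 0.30, 0.0202). Lower in BM sorted were Tlr1, Tlr2, Tlr3, Tlr4, Tlr8, Cd14 and Lbp. Of these, Tlr1, Tlr8 and Cd14 were also at or under 10% after both purifications. The macrophage and monocyte list had 0 of 12 genes higher and 3 lower in BM sorted. The leukocyte core had 1 of 8 higher and 0 lower. Tlr4 averaged 20.4 ± 4.44 CPM in BM sorted and 77.1 ± 12.5 CPM in BAC depleted libraries (-1.92 ± 0.18, 5.11e-05). Lbp averaged 49.9 ± 13.1 CPM in BM sorted and 103 ± 7.25 CPM in BAC depleted libraries (-1.05 ± 0.23, 0.00427). Cd14 averaged 1.65 ± 0.711 CPM in BM sorted and 5.08 ± 2.08 CPM in BAC depleted libraries (-1.61 ± 0.41, 0.00863). Tlr3 averaged 12.7 ± 2.28 CPM in BM sorted and 31.4 ± 5.20 CPM in BAC depleted libraries (-1.30 ± 0.19, 0.000507). The libraries of the purified groups did not overlap for 6 members lower in BM sorted (Tlr1, Tlr2, Tlr3, Tlr4, Cd14 and Lbp, 13.6% of 44) and 9 higher (20.5%), where 26.4% of all tested genes did not overlap in each direction. Fitted on these 2 groups alone, 5 members were higher and 4 lower, and without BM sorted 3 the number lower was 4. The calls for Fcgr4, Cd163, Tlr1, Tlr2, Tlr5 and Tlr8 were each lost without single libraries, as follows: Fcgr4 without BM sorted 2 or 3 or BAC depleted 1 or 2, Cd163 without BM sorted 2 or 3, Tlr1 without BM sorted 2 or 3 or BAC depleted 2 or 3, Tlr2 without BM sorted 3, Tlr5 without BM sorted 1 or BAC depleted 2, and Tlr8 without any of 10 of the 12 libraries.

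For 8 members the effects of the sort and of the depletion differed. The sort effect minus the depletion effect was above 0 for Fcgr4, Clec12a, Mrc1, Cd163, Stab1, Lbp, C3ar1 and C5ar1, where 8.06% of all tested genes were called, 5.08% above and 2.99% below. No member was called below 0; at an unadjusted p under 0.05 there were 2 below and 17 above, and in DESeq2's Wald test 1 below and 13 above. For each of the 8 the share remaining was larger after the sort than after the depletion, and for Lbp these shares were 255% and 108%, both above its unpurified level. C5ar1 had a difference of 6.41 ± 0.64 on the log2 scale (adjusted p = 0.00118, edgeR), Stab1 of 3.44 ± 0.42 (0.00237), Mrc1 of 3.10 ± 0.47 (0.00605) and C3ar1 of 4.64 ± 0.81 (0.0105). Clec12a (0.00466) and Cd163 (0.0304) were at 0 in BAC depleted libraries, so the size of their difference depends on the prior count. Fcgr4 (3.53 ± 0.84, 0.033), Cd163 and Lbp (1.23 ± 0.32, 0.0457) were each lost when single libraries were left out, Fcgr4 without any of 9 of them, Cd163 without any of 7 and Lbp without any 1 of the 12, where its adjusted p lay between 0.0504 and 0.0925. The leukocyte core summed to 3.66 to 8.57 CPM in BM sorted and 1.49 to 2.0 CPM in BAC depleted libraries. Of its 8 genes 1 was called for this difference, and 0 of the 12 macrophage and monocyte genes were. Both lists still lay above 0, with a median difference of 2.02 for the core and 2.25 for the macrophage and monocyte genes. The median was 1.35 over the tested members and -0.0576 over all tested genes, so a shift above 0 was not particular to the 8 members. In BM sorted libraries 1 of the 8 core genes reached a mean of 1 CPM. The part of the core in the result was not tested. The sort and the beads also differ in method, antigens and starting material, which cannot be told apart.

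Without BAC depleted 1, the library with Xist counts, all 35 falls after the depletion were still called by edgeR, but some values moved. The 2 counts of C5ar1 left in bone were both in that library. Without it the log2 fold change of C5ar1 was -15.71 (adjusted p = 8.83e-07) for the depletion, 8.17 (adjusted p = 0.000299) between the purified groups and 9.15 (adjusted p = 0.00205) for the difference of effects, sizes that depend on the prior count since the group was then at 0. Csf2ra remained at 18.3% in place of 28.5% after the depletion, and its log2 fold change was -2.45 (adjusted p = 7.34e-06). Its purified difference was 0.11 (adjusted p = 0.585), against -0.53 with the library. The depletion value of Trem2 was -8.97 (adjusted p = 0.000194), of C3ar1 -12.25 (adjusted p = 1.5e-06) and of Fcgr2b -12.80 (adjusted p = 1.46e-05). The share of Fcgr2b remaining after the depletion was 0.0127% in place of 0.00845%, and that of Tlr13 was 0.00999% in place of 0.00666%. C3ar1 stood at 2.66 (adjusted p = 0.0175) between the purified groups and 4.01 (adjusted p = 0.0166) for the difference of effects, and Trem2 at 2.42 (adjusted p = 0.0614) and 3.80 (adjusted p = 0.0574) in that order. Cd36 had the opposite sign between the purified groups, at 1.94 (adjusted p = 0.219) against -3.34 with the library, and was called in neither fit. Some calls ended without the library: Fcgr4 stood at 2.67 (adjusted p = 0.0523) and Tlr8 at -2.94 (adjusted p = 0.0597) between the purified groups. For the difference of effects Fcgr4 stood at 3.79 (adjusted p = 0.0514) and Lbp at 1.18 (adjusted p = 0.0717). Mertk was then called lower in BM sorted than in BAC depleted libraries, at -0.66 (adjusted p = 0.00139).

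**Figure D5:**
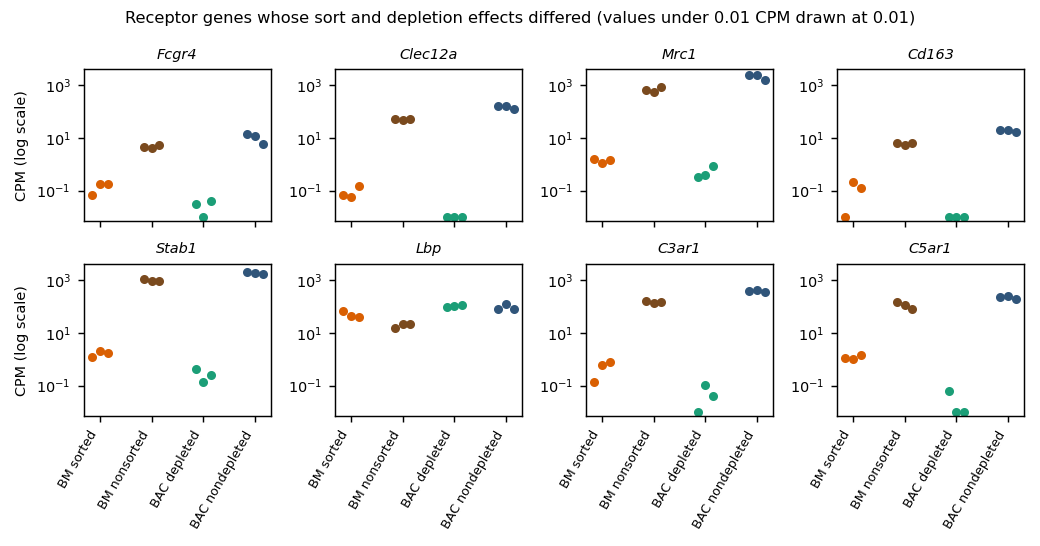
CPM on a log axis (values under 0.01 drawn at 0.01) of the 8 members whose sort and depletion effects differed, 1 point per library in BM sorted, BM nonsorted, BAC depleted and BAC nondepleted groups. Clec12a and Cd163 have no counts in the BAC depleted libraries, and Lbp alone is higher in BM sorted than in BM nonsorted libraries.

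Genes of the pathways around these receptors were taken from 5 lists. Over all tested genes 6.06% fell and 0.166% rose after the sort, so 0 rising there is near that share for any short list. After the depletion 19.9% of all tested genes fell and 17.4% rose. Of 14 tested genes for signalling behind activation motifs and Fc receptors, 12 fell and 0 rose after the sort, and 14 fell and 0 rose after the depletion. Wherever a list below has 0 genes that rose by edgeR, 0 did at an unadjusted p under 0.05 and in DESeq2's Wald test, apart from 1 gene of the engulfment list by either after the sort. Blnk, an adaptor downstream of SYK, had 0 counts in BM sorted libraries against 566, 454 and 509 in BM nonsorted libraries, and 0 counts in BAC depleted libraries against 1092, 1047 and 901 in BAC nondepleted libraries. Lcp2, another such adaptor, had 1, 0 and 1 counts in BM sorted libraries against 1139, 839 and 999 in BM nonsorted libraries, and 0 counts in BAC depleted libraries against 2124, 1681 and 1446 in BAC nondepleted libraries. Of 14 tested paired and inhibitory myeloid receptors, 14 fell and 0 rose after the sort, and 14 fell and 0 rose after the depletion. Genes near 0 counts after purification entered the test only through the unpurified libraries. The counts of all 5 lists therefore describe the groups and are not read as a test. Ms4a7, a membrane protein of macrophages, had 0, 0 and 1 counts in BM sorted libraries against 1830, 1378 and 2269 in BM nonsorted libraries, and 0 counts in BAC depleted libraries against 6473, 6281 and 4706 in BAC nondepleted libraries. Clec4a2, an inhibitory lectin, was at least 414-fold lower after the sort, and Lilrb4a, an inhibitory immunoglobulin-like receptor, was at least 2485-fold lower after the depletion.

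The other 3 lists were mixed, as the receptors themselves were. Of 15 tested C-type lectins and scavenger receptors outside the 45, 6 fell and 0 rose after the sort, and 6 fell and 2 (13.3%) rose after the depletion, where 17.4% of all tested genes rose. Clec4a3 was at least 187-fold lower and Clec4a1 333-fold lower with a 95% counting interval of 114 to 1619 after the sort; Clec5a was at least 1346-fold lower and Clec4a1 at least 1072-fold lower after the depletion. Scara3, a scavenger receptor-like protein, rose after the depletion, with 375 ± 124 CPM in BAC depleted and 147 ± 26.8 CPM in BAC nondepleted libraries (1.35 ± 0.24, adjusted p = 0.0016, edgeR). Megf10, an engulfment receptor known from glia and muscle satellite cells, rose with 3, 620 and 0 counts in BAC depleted libraries against 5, 0 and 0 in BAC nondepleted libraries, nearly all in BAC depleted 2 (0.0443). Of 23 tested Toll-like receptor signalling genes, 8 (34.8%) fell and 0 rose after the sort. After the depletion 10 (43.5%) fell and 1 (4.3%), Irf3, rose, below the 17.4% of all tested genes. Irf3, a factor that induces interferon, was at 0.41 ± 0.14 (0.0444). Cd180, a Toll-like protein of B cells and macrophages, had 6, 3 and 6 counts in BM sorted libraries against 1637, 1331 and 1472 in BM nonsorted libraries, and 5, 10 and 1 counts in BAC depleted libraries against 3688, 3305 and 2872 in BAC nondepleted libraries, and its partner Ly86 had 3, 0 and 0 counts in BM sorted libraries against 688, 559 and 750 in BM nonsorted libraries, and 0, 1 and 0 counts in BAC depleted libraries against 1401, 769 and 764 in BAC nondepleted libraries.

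A list of 16 genes for ligands and engulfment includes Axl, Mertk and Tyro3 themselves. Of the 16, 4 (25.0%) fell and 0 rose after the sort. After the depletion 5 (31.2%) fell and 3 rose, where 19.9% of all tested genes fell. Mertk was among those that fell each time. The 3 that rose are 18.8% of the list, near the 17.4% of all tested genes. Dock2, a leukocyte activator of RAC, had 0, 1 and 0 counts in BM sorted libraries against 2317, 1979 and 1982 in BM nonsorted libraries, and 0, 0 and 2 counts in BAC depleted libraries against 4275, 3716 and 2953 in BAC nondepleted libraries. Cd300lb, an activating receptor, had 0 counts in BM sorted libraries against 941, 745 and 723 in BM nonsorted libraries, and 1, 0 and 0 counts in BAC depleted libraries against 1365, 1267 and 974 in BAC nondepleted libraries. Gas6, the bridging ligand of all 3 receptors, rose after the depletion, with 107639, 284362 and 42466 counts in BAC depleted libraries against 39574, 61475 and 24775 in BAC nondepleted libraries (1.76 ± 0.55, adjusted p = 0.03, edgeR). The BAC depleted libraries themselves spread widely for it, and BAC depleted 2 was the highest. Adgrb1 (BAI1), a phosphatidylserine receptor, rose as well, with 94, 282 and 20 counts in BAC depleted libraries against 4, 2 and 0 in BAC nondepleted libraries (5.94 ± 1.04, 0.00158).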

How the data were processed

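Reads had been aligned with STAR 2.7.9a to build GRCm39 and counted with featureCounts of Subread 2.0.1 (with MultiQC 1.7), per the submitters' processing notes; no source used here gives the annotation release or strand setting, which leaves values of antisense, overlapping and near-copy genes uncertain. The 12 libraries have unnormalized read counts by gene in the deposited table, with 27937709 to 32164725 counts each and 0 other columns; its 1442 entries named only by an identifier were kept throughout.

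Tests were run in R 4.3.3 with edgeR 4.0.16: TMM scaling, filterByExpr (15698 genes), 1 mean per group over all 12 libraries (8 residual degrees of freedom, common dispersion 0.0969), robust quasi-likelihood F tests and Benjamini-Hochberg adjustment over all genes per contrast, called at an adjusted p under 0.05. Compared were BM sorted with BM nonsorted (the sort), BAC depleted with BAC nondepleted (the depletion), the unpurified groups (BM nonsorted over BAC nondepleted), the purified groups (BM sorted over BAC depleted) and the sort effect with the depletion effect, as their difference. SE is the size of the log2 fold change over the root of F and is unreliable near 0 counts. A group at 0 counts has its fold given as a bound at 3 counts over the group, and a group with 1 to 3 counts has an exact 95% counting interval. The script was tested on simulated data.

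The 45 members, their roles, the marker lists and the pathway lists were chosen with earlier results of these data known. All members are named, with every library's value where a group averaged at least 10 CPM; from each pathway list up to 2 genes that rose and 2 that fell most are named per purification. Libraries of a group differed by at least 16.2 chi-square per degree of freedom, and each was counted as its own sample. Alternatives were DESeq2 1.42.0 (size factors and Wald test), upper quartile scaling, no and a stricter low-count filter (1 CPM in 3 libraries), fits on the compared groups only, a replicate block, leaving out each library, medians for shares and scaling to the leukocyte core.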

Additional observations from a re-analysis of the deposited data

Results flagged for a closer look

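For 8 receptor genes the change after the sort differed from the change after the depletion, as tested by the interaction of purification and preparation in edgeR; values are the sort effect minus the depletion effect on the log2 scale, ± SE. C5ar1 had 6.41 ± 0.64 (adjusted p = 0.00118), Stab1 3.44 ± 0.42 (adjusted p = 0.00237), Clec12a 6.16 ± 0.77 (adjusted p = 0.00466), Mrc1 3.10 ± 0.47 (adjusted p = 0.00605), C3ar1 4.64 ± 0.81 (adjusted p = 0.0105), Cd163 6.46 ± 1.39 (adjusted p = 0.0304), Fcgr4 3.53 ± 0.84 (adjusted p = 0.033) and Lbp 1.23 ± 0.32 (adjusted p = 0.0457). Clec12a and Cd163 had 0 counts in the BAC depleted libraries, so the size of their values depends on the prior count. Of these genes, Lbp stayed at a level above 10% after both purifications; the other 7 had means under 2 CPM in both purified groups.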

How the results depend on the processing

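The numbers of members lower (33 to 36) and higher (1) after the sort, and lower after the depletion (34 to 36), and the 12 members above 10%, moved by less than 1.5 times under every alternative run. Fitted on the compared groups only, 3556 genes were called for the depletion, against 5863, and between the purified groups 5 members were higher, against 9, and 4 lower, against 7. Scaled to the leukocyte core on the 6 unpurified libraries, a choice added after the data were seen, 9 members were higher and 12 lower in BM nonsorted than in BAC nondepleted libraries, against 2 and 27, a scale that raised all genes by a median of 1.05 (log2). The share of all genes called on that scale was not taken. Signs changed for 13 members, namely Clec4n, Csf2ra and Cd86 (0.0806, 0.407 and 0.346, called on neither scale) and Clec4d 0.015 (adjusted p = 0.936), Msr1 0.286 (adjusted p = 0.147), Cd36 0.647 (adjusted p = 0.0123), Stab1 0.163 (adjusted p = 0.392), Mertk 0.685 (adjusted p = 0.00406), Tlr3 0.415 (adjusted p = 0.0301), Tlr5 0.969 (adjusted p = 0.00613), Ly96 0.494 (adjusted p = 0.0417), Myd88 0.839 (adjusted p = 0.0421) and C5ar1 0.0558 (adjusted p = 0.769). The same scaling over all 12 libraries was not run, because the purified libraries hold almost no core counts. For the difference of effects, DESeq2's Wald test called 13 members higher and 1 lower and 2450 genes in all, against 8, 0 and 1266.

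With the replicate number as a block the difference of effects had 5 members higher (Fcgr4, Cd163 and Lbp were not called) and 1 lower (Tlr4, -0.88), and 808 genes in all. Deviations from the group means of same-numbered libraries correlated at -0.32 to 0.128 (BM sorted with BM nonsorted), 0.0378 to 0.257 (BAC depleted with BAC nondepleted), 0.0316 to 0.146 (BM sorted with BAC depleted), 0.0481 to 0.116 (BM sorted with BAC nondepleted) and below 0 in the other 2 pairs of groups. In that order 1, 3, 5 and 4 of 6 libraries correlated best with their own number, and 0 in the other 2. As no pair of groups had all 3 correlations over 0.1, the numbers were taken as names only. Leaving out each library gave 1 to 2 members higher, 15 to 33 lower and 2949 to 6054 genes called between the unpurified groups, 4 to 7 members lower between the purified groups, and 5 to 8 members higher, 0 to 1 lower and 437 to 1612 genes for the difference of effects. Of the members' fold changes under alternatives, 10 of 835 for the sort and 9 of 834 for the depletion lost their call (Cd36 in 8 and 9, Csf2ra in 2 for the sort), and 0 reversed. The cause of these changes was not tested. Members at 0 to 3 counts are limited by depth: their shares are upper limits or carry wide counting intervals.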
